A study of Mus musculus with 22 samples.

Results

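The 57 genes described here lie at the centromeric end of mouse chromosome 16. They were taken from a list of 60 genes that start within about the first 17 Mb of that chromosome, matched by symbol or older synonym to the probe sets of an expression array. Zfp174, Zfp500 and Rmi2 were not matched. Bfar was matched only through the synonym 3110001I22Rik, not by gene identifier, and that probe set was given the position of Bfar. Whether the probe set measures Bfar was not checked, and all values under the name Bfar are those of this probe set. The 57 members stand among 15780 named genes on the array, of which 509 lie on chromosome 16, 47 of these being other genes of the same first 17 Mb and 405 lying beyond. Coordinates are those of the mouse assembly GRCm38.p6, in which the members start between 3.74 Mb (Zfp263) and 15.89 Mb (Spidr). The members were selected on their germ cell values, because genes of this region were lower in trisomic than in euploid germ cells. Every trisomic minus euploid difference in germ cells below is therefore a description of what chose the members, given without a test. The liver arrays, and differences between cell types averaged over both genotypes, were not used to choose them and were tested.

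All mice were males aged 2 months. Trisomic arrays came from Ts43H males and euploid arrays from siblings of the genotype t121/D17. Ts43H mice carry a small marker chromosome that arose from a translocation between chromosomes 16 and 17 and that adds a copy of the centromeric part of chromosome 17. Per genotype there were 3 liver arrays, 3 arrays of spermatocytes up to mid-pachytene (here pre-mid-pachytene cells), 2 arrays of spermatocytes from mid-pachytene on (mid-late-pachytene cells) and 3 spermatid arrays, 22 in all. The germ cells were sorted by fluorescence. Groups of 2 or 3 arrays, for which separate animals are not stated, limit the precision, and the p-values measure only the spread between these arrays. The copy number of the chromosome 16 segment in either genotype was not measured here.

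Chromosome 16 of the mouse is acrocentric, so its first genes follow the centromere directly. During the pachytene stage of meiosis homologous chromosomes are paired along their length, and chromatin that stays unpaired can be silenced in transcription, a process best known from the sex chromosomes. The members serve unlike functions, from a histone acetyltransferase to a DNA-dependent protein kinase, and share mainly their position.

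Levels are log2 intensities, on which a difference of 1 is a 2-fold change, and levels of different genes are not compared, since each gene has its own probes. A member was tested in a cell type if its mean there was at least 4. This left 45 members in liver, 44 in pre-mid-pachytene cells, 43 in mid-late-pachytene cells and 43 in spermatids, 38 of them in all 4. A further 13 members passed in some cell types. The other 6, the transcription factors Tfap4 and Glis2, the MHC class II transactivator Ciita, the cytokine signalling inhibitor Socs1, the membrane protein Emp2 and the nuclease Dnase1, passed in none and are not described further.

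Hepatocyte markers averaged 15.94 to 16.09 in liver and at most 2.80 on any germ cell array, while 8 Sertoli cell markers averaged 4.38 to 4.57 on the pre-mid-pachytene arrays and 3.13 to 3.69 on the later germ cell arrays. Of these 8, Gata4, Amh, Fshr and Dhh were below 3 on every array, but in pre-mid-pachytene cells Clu had means of 13.35 (euploid) and 13.13 (trisomic), Cldn11 6.78 and 7.04 and Wt1 4.96 and 4.43. None of the 3 was called between genotypes (adjusted p of 0.816, 0.796 and 0.0774), and the part of Sertoli cell RNA in the members' values was not tested. Both genotypes of pre-mid-pachytene cells carried markers of elongating spermatids at averages of 13.71 to 14.47. The 8 round spermatid markers averaged 10.06 to 10.84 on the euploid and 9.23 to 9.99 on the trisomic arrays of that type, where 2 of 8 fell and 0 rose in limma's test (3 lower and 0 higher at an unadjusted p under 0.05). These were Acrv1, an acrosomal protein (-1.65, SE 0.31, adjusted p = 0.00398), and Catsper3, a sperm calcium channel subunit (-1.95, SE 0.48, adjusted p = 0.0181). In mid-late-pachytene cells and spermatids the elongating spermatid markers had median trisomic minus euploid differences of -0.38 and -0.28. Round spermatid markers had -0.15 and -0.02 there and pachytene markers 0.02 and -0.02, with no gene of these lists called. Prm1, Prm2, Prm3 and Tnp2 of the elongating list lie in the same 17 Mb as the members. The part of cell composition in the members' values was not tested. Genes in the first 17 Mb of chromosome 17 had median trisomic minus euploid differences of 0.70 in liver, 0.25 in pre-mid-pachytene cells, 0.23 in mid-late-pachytene cells and 0.36 in spermatids.

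Promoters are shown for 6 members on which the results below turn. A promoter here is the 300 bases from 250 before to 50 after an annotated start, written 5′ to 3′ on the gene's own strand, from RefSeq for GRCm38.p6. Cep20 was lower on every trisomic than on every euploid array in all 4 cell types, and Coro7 was lower in germ cells but higher in liver. Tmem186 had differences of like size in the 3 germ cell types, and 4930562C15Rik had the largest rise from liver to germ cells. Glyr1 shares its promoter with Ubn1 on the other strand, and Pdxdc1 was higher on every trisomic array. Capitals mark matches to the 5 motifs searched on both strands, which were the TATA box TATAAA, the E-box CACGTG, the ETS-type motif CCGGAAG, the GC box GGGCGGG and the CRE-type motif TGACGTC. Where a match and its reverse complement overlap, the capitals run together.
Cep20 (chr16:14317283-14317582, minus strand): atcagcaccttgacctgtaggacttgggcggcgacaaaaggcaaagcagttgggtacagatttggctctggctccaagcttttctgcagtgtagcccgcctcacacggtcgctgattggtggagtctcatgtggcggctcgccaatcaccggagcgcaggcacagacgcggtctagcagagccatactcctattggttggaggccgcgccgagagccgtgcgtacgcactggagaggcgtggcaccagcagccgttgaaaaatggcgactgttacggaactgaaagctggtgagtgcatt
Coro7 (chr16:4679671-4679970, minus strand): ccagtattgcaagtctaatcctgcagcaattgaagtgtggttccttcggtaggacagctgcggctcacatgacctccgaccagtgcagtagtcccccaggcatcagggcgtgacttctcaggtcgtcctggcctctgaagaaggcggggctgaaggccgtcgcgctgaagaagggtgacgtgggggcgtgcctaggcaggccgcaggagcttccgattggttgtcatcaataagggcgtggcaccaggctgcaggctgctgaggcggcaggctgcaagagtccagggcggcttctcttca
Tmem186 (chr16:8637662-8637961, minus strand): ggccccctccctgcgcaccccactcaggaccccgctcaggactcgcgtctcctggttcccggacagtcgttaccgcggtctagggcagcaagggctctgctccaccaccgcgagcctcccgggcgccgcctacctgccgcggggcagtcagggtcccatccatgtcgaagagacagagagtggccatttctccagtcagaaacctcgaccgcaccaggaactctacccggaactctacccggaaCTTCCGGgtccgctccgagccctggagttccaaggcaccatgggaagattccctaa
4930562C15Rik (chr16:4835166-4835465, plus strand): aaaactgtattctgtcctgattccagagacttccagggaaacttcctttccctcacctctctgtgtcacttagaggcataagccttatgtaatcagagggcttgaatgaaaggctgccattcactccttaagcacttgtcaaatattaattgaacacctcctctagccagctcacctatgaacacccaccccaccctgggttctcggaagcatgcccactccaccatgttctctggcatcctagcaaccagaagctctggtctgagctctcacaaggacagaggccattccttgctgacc
Glyr1 (chr16:5049861-5050160, minus strand): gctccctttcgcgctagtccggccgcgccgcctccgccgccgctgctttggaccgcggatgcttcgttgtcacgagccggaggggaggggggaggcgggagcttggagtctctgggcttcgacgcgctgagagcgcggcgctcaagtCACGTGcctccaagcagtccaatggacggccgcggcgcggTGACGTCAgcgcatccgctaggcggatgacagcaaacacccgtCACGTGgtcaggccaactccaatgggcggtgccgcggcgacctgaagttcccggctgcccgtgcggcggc
Pdxdc1 (chr16:13903096-13903395, minus strand): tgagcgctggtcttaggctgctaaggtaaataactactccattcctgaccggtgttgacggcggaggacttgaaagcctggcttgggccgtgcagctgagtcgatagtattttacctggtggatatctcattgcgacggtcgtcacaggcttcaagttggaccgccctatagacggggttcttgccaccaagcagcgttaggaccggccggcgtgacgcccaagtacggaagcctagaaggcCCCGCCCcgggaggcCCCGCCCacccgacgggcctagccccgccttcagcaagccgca
The Cep20, Coro7 and 4930562C15Rik windows hold none of the 5 motifs. The window of 4930562C15Rik holds 1 CpG, that of Cep20 21 and that of Glyr1 41. Tmem186 holds CCGGAAG, Glyr1 holds CACGTG and TGACGTC, and Pdxdc1 holds GGGCGGG. Promoters were given for 47 of the 57 members and for 12585 genes of the array, and a gene with several starts was counted once. CACGTG stood in 21.3% of member promoters and 9.22% of array promoters, and CCGGAAG in 25.5% and 14.1%. GGGCGGG stood in 48.9% and 41.2%, TATAAA in 8.51% and 9.73%, and TGACGTC in 6.38% and 4.75%. The median number of CpG was 23 for members and 17 for array genes, and the median GC content was 61% and 59%. The overlapping windows of Glyr1 and Ubn1 hold the same CACGTG and TGACGTC sites, and those of Tmem186 and Pmm2 the same CCGGAAG site. Each shared site was counted for both genes, which raises the member shares. These matches describe letters in the windows and were not tested for function.

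In trisomic pre-mid-pachytene cells the members were on balance well below the euploid level. The median difference of the 44 members tested was -0.50, against 0.11 over all genes tested, or -0.61 relative to that shift. There were 39 of 44 members below 0 (38.3% of all genes tested), and 26 of 44 had every trisomic array below every euploid array (9.46% of all genes). Pdxdc1 alone had every trisomic array above (20.8% of all genes). In mid-late-pachytene cells the median was -0.25, with 33 of 43 members below 0 (49.4% of all genes), 17 of 43 lower without overlap (15.3%) and 2 of 43 higher without overlap (17.7%). In spermatids the median was -0.28, with 35 of 43 below 0 (47.3%), 11 of 43 lower without overlap (5.57%) and 2 of 43 higher (7.45%). Without the filter on low values the median was -0.11 in mid-late-pachytene cells and -0.15 in spermatids, and over all genes of the first 17 Mb it was -0.17 in spermatids. Because these differences chose the region, nothing is read from the shares here or across cell types.

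The median over the members was similar on the arrays of a group. Taken as deviations from each gene's euploid mean, the 3 trisomic pre-mid-pachytene arrays had member medians of -0.54, -0.59 and -0.45, while the euploid arrays lay between -0.03 and 0.11. The trisomic mid-late-pachytene arrays had -0.24 and -0.30 and the trisomic spermatid arrays -0.27, -0.23 and -0.32. In liver the trisomic arrays had 0.10, 0.15 and 0.00 and the euploid arrays 0.02, 0.07 and -0.10, so the groups overlapped there. Between same-numbered liver arrays the trisomic median was higher in 3 of 3 pairs, by 0.07, 0.07 and 0.10, on the deposited scale. The labels do not state that these arrays are pairs. In RNA from sorted populations, fewer cells of a type and less RNA per cell cannot be told apart.

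**Figure D1:**
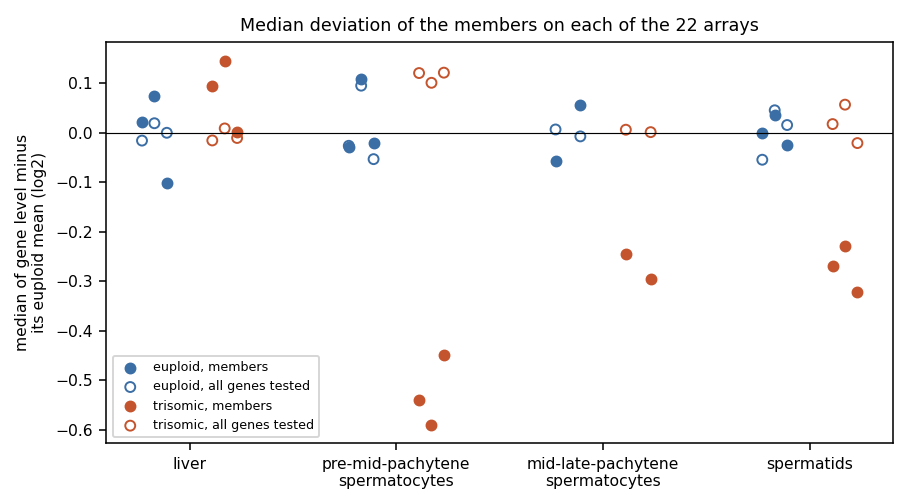
Median over the tested members (filled) and over all tested genes (open) of each gene's level minus its euploid mean, in log2 units, for each of the 22 arrays by cell type. The trisomic germ cell arrays have member medians between -0.59 and -0.23, while the euploid germ cell arrays lie between -0.06 and 0.11 and the liver arrays of both genotypes overlap.

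Across the germ cell types, 33 of the 46 members tested in at least 1 of them were lower without overlap in at least 1 (22.9% of all genes), and 27 of the 41 tested in all 3 had differences below 0 in all 3 (12.7%). Lower without overlap in all 3 were 7 of 41 members (0.293%), Trap1, Coro7, Vasn, 4930562C15Rik, Tmem186, Cep20 and Prkdc. The 12 of 43 members lower without overlap in both pachytene types (1.8% of all genes) made up 46.2% of those in pre-mid-pachytene and 70.6% of those in mid-late-pachytene cells. Over the 41 members tested in both mid-late-pachytene cells and spermatids, Pearson's r of the differences was 0.70 and Spearman's rho 0.55, against 0.48 and 0.41 over all genes tested in both. Pre-mid-pachytene differences had r of 0.41 with mid-late-pachytene differences (43 members) and 0.35 with spermatid differences (41 members), against 0.15 and 0.16 over all genes. Leaving out 1 array moved the difference by over 1.5 times for 3 of the 26 members lower without overlap in pre-mid-pachytene cells, 6 of 17 in mid-late-pachytene cells and 2 of 11 in spermatids. Each cell type had its own euploid arrays, and neighbouring genes are not independent points.

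**Figure D2:**
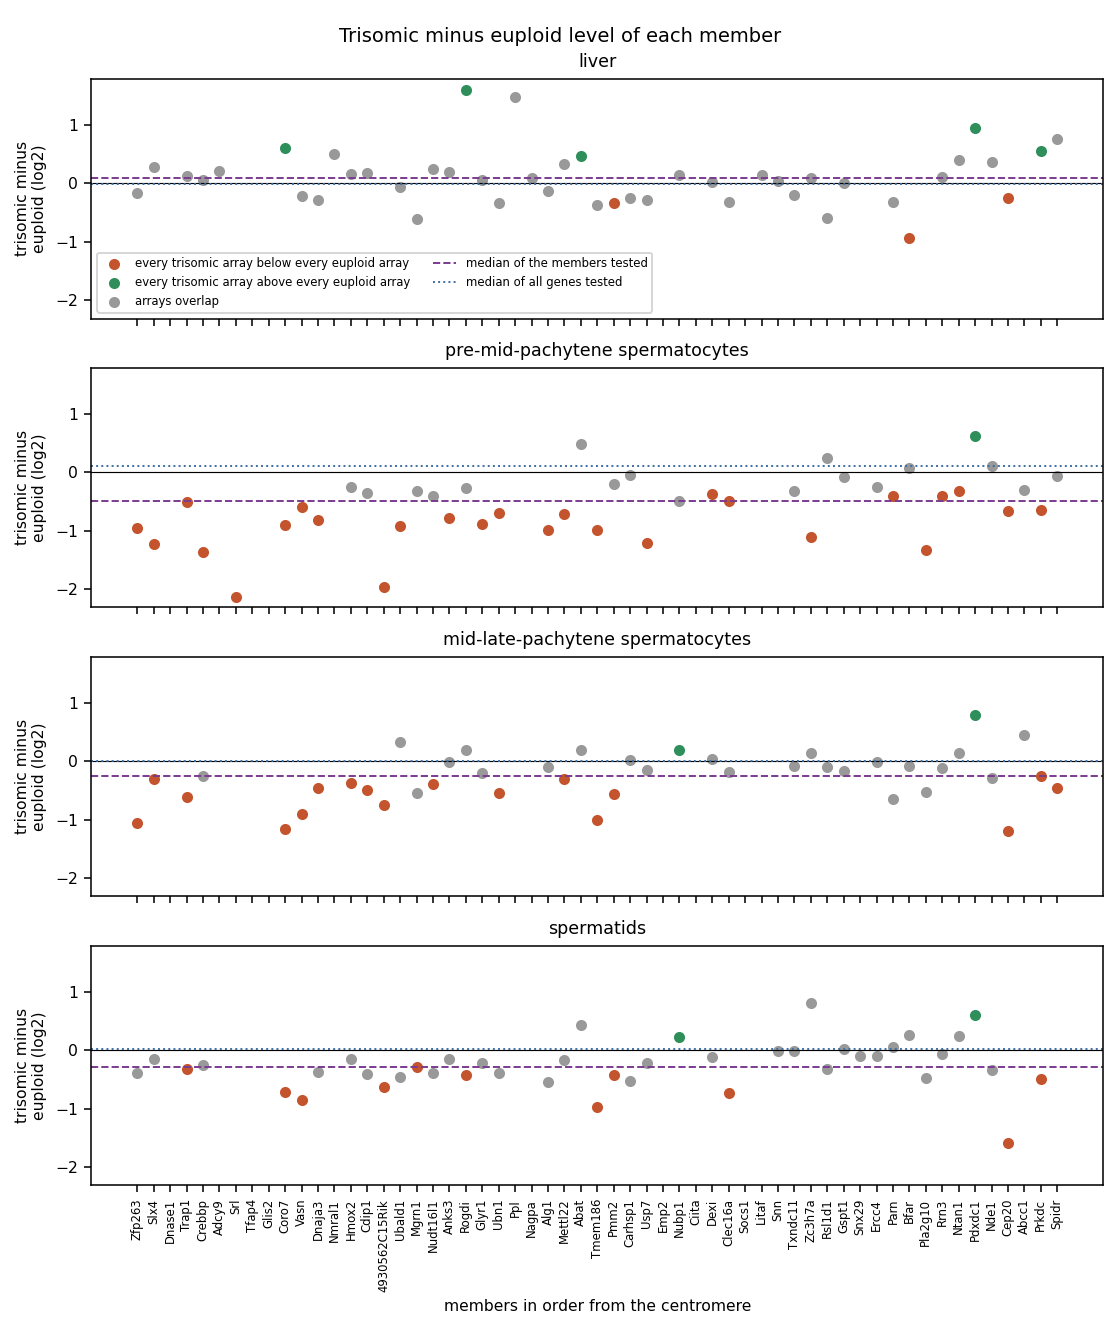
Trisomic minus euploid level (log2) of each tested member in 4 cell types, with the 57 members in order from the centromere; orange and green points mark members whose arrays do not overlap, and lines give the medians. In pre-mid-pachytene cells 39 of 44 points lie below 0, and Pdxdc1 lies above 0 in all 4 panels.

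The differences were largest in the first block from the centromere. Members that start below 6 Mb had medians of -0.82 in pre-mid-pachytene cells (19 of 19 below 0), -0.42 in mid-late-pachytene cells (16 of 18) and -0.39 in spermatids (18 of 18). Between 6 and 12 Mb the medians were -0.37, -0.11 and -0.12 in the same order, and from 12 Mb on they were -0.31, -0.18 and -0.08. The 47 unlisted genes of the same 17 Mb, of which 27 to 29 were tested in a germ cell type, had -0.36, -0.26 and -0.14. Beyond them, chromosome 16 genes from 17 to 40 Mb had -0.09, -0.06 and -0.04, and those from 40 to 60 Mb 0.09, -0.07 and -0.08. Genes from 60 to 80 Mb had 0.10, 0.10 and 0.04, and those from 80 Mb to the end had 0.15, -0.02 and 0.05. In the first 17 Mb of the other autosomes with at least 20 tested genes there, chromosomes 16 and 17 left out, the medians ran from 0.06 to 0.26 in pre-mid-pachytene cells. They ran from -0.09 to 0.08 in mid-late-pachytene cells and from -0.06 to 0.05 in spermatids.

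At the 17 Mb bound the values were mixed. The last members inside it had pre-mid-pachytene differences of -0.30 (Abcc1, a drug and conjugate exporter), -0.65 (Prkdc) and -0.06 (Spidr, a scaffold of recombination repair). These members start between 14.36 and 15.89 Mb. Nearer the bound, the unlisted genes tested from 16.21 Mb had 0.13 (Pkp2), -0.10 (Yars2) and 0.02 (Dnm1l). Those from 16.71 to 16.87 Mb had -1.81 (4933404G15Rik), -0.36 (Spag6l) and -0.50 (Top3b), the first and last without overlap. The first genes outside it had -0.41 (Ypel1), -0.03 (Ppil2) and 0.19 (Sdf2l1). In spermatids Sdf2l1 differed by -0.74 and Spidr was below a mean of 4.

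Of the genes of transcription and chromatin, all 5 tested members were below 0 in each germ cell type, with medians of -0.89, -0.25 and -0.26 in the order of their maturation. Crebbp encodes the histone acetyltransferase CBP. Its pre-mid-pachytene levels ran from 9.69 to 10.30 on the euploid arrays and were 8.59, 8.48 and 8.85 on the trisomic arrays, a difference of -1.36. The groups lay far apart in that type, but in mid-late-pachytene cells the euploid arrays had 8.81 and 7.21 and the trisomic 7.58 and 7.94, and overlapped. Zfp263, a zinc finger transcription factor, had 10.74 and 10.70 on the euploid and 9.40 and 9.92 on the trisomic mid-late-pachytene arrays, a difference of -1.06. It was lower without overlap in pre-mid-pachytene cells too (-0.95), but in liver the difference was -0.17 and the arrays overlapped.

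Glyr1, which binds nucleosomes of transcribed genes, and Ubn1, a subunit of the chaperone that deposits histone H3.3, are transcribed away from each other with 146 bases between their starts. In pre-mid-pachytene cells Glyr1 had 11.47, 11.78 and 11.64 on the euploid and 10.71, 10.81 and 10.72 on the trisomic arrays, and Ubn1 8.84, 9.20 and 9.12 (euploid) and 8.43, 7.93 and 8.74 (trisomic). Both were lower without overlap there, with differences of -0.89 and -0.69. In mid-late-pachytene cells Ubn1 was lower without overlap (-0.55, and -0.28 without euploid array 1) and Glyr1 was not (-0.21). Rrn3, an initiation factor of RNA polymerase I, differed by -0.40 in pre-mid-pachytene cells and by -0.06 in spermatids.

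The 6 tested genes of DNA repair and genome stability were below 0 in both pachytene types, with medians of -0.53 and -0.27. Slx4 is the scaffold of nucleases that cut branched DNA. On the pre-mid-pachytene arrays it had 7.63, 7.61 and 7.55 (euploid) and 6.49, 5.86 and 6.75 (trisomic), a difference of -1.23. In mid-late-pachytene cells, where its level was higher, the difference was -0.30, still without overlap. Usp7, a deubiquitinase known for its action on Mdm2 and p53, had 8.23, 7.79 and 8.53 (euploid) and 6.93, 6.91 and 7.09 (trisomic), a difference of -1.21. Its mid-late-pachytene arrays overlapped.

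Prkdc, the catalytic subunit of DNA-dependent protein kinase that acts in end joining, was lower without overlap in each of the 3 germ cell types. Its pre-mid-pachytene levels were 10.06, 9.74 and 9.97 on the euploid and 9.11, 9.09 and 9.64 on the trisomic arrays. In mid-late-pachytene cells the levels were 8.28 and 8.28 (euploid) and 8.0 and 8.05 (trisomic), and in spermatids 8.57, 8.22 and 8.76 (euploid) and 8.12, 7.91 and 8.04 (trisomic). The differences were -0.65, -0.25 and -0.50, in that order. Ercc4, a nuclease of excision repair, overlapped between genotypes in every germ cell type, with differences of -0.25, -0.02 and -0.09. Nudt16l1, also called TIRR, a regulator of 53BP1, differed by -0.40 and -0.39 in the pachytene types, without overlap only in the second. Without trisomic array 3 the first was -0.16.

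Among the 8 genes of the cytoskeleton, centrosome and trafficking, 5 of 6 tested were below 0 in pre-mid-pachytene cells and 6 of 6 in spermatids. Cep20, a small protein of the centrosome and the base of cilia, had the largest spermatid difference of the members. Its spermatid levels were 10.32, 10.35 and 10.09 on the euploid and 8.26, 8.50 and 9.26 on the trisomic arrays. The difference there was -1.58, a 2.99-fold lower trisomic level, with -1.19 in mid-late-pachytene and -0.66 in pre-mid-pachytene cells. Without euploid array 2 the mid-late-pachytene difference was -0.75. The pre-mid-pachytene arrays were tight, with 12.30, 12.33 and 12.32 (euploid) against 11.72, 11.66 and 11.60 (trisomic). In liver the levels were 10.20, 10.61 and 10.36 (euploid) and 10.17, 10.15 and 10.09 (trisomic). These do not overlap either, but the liver difference of -0.25 (SE 0.23, adjusted p = 0.614) did not pass the test.

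Coro7, a coronin of the Golgi and of actin regulation, had 4.99, 4.98 and 5.38 on the euploid and 4.29, 4.07 and 4.30 on the trisomic pre-mid-pachytene arrays. In mid-late-pachytene cells it had 6.71 and 7.04 (euploid) against 5.86 and 5.57 (trisomic), and in spermatids 6.83, 6.82 and 6.20 (euploid) against 5.63, 6.12 and 5.94 (trisomic). The trisomic arrays were lower in each germ cell type, with differences of -0.90, -1.16 and -0.72. Vasn, a membrane protein that binds TGF-beta, lies within the bounds of Coro7 in the annotation. It had spermatid levels of 5.51, 5.31 and 5.22 (euploid) and 4.55, 4.48 and 4.45 (trisomic), a difference of -0.85, and differed by -0.59 and -0.90 in the pachytene types. Without euploid array 3 the pre-mid-pachytene difference of Vasn was -0.29, and without euploid array 2 the mid-late-pachytene difference was -0.56. Other members that overlap in the annotation are Tmem186 and Pmm2, Pdxdc1 and Ntan1, Trap1 and Dnase1, Hmox2 and Cdip1, Dexi and Ciita, and Snn and Txndc11, and the part of the overlap in their values was not tested.

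Srl, the calcium-binding protein sarcalumenin, had the largest pre-mid-pachytene difference. Its levels were 5.72, 6.29 and 5.93 on the euploid and 3.43, 2.84 and 5.30 on the trisomic arrays, a difference of -2.12. The third trisomic array lay close below the euploid ones, and the other cell types were below a mean of 4. The trisomic levels of 3.43 and 2.84 were themselves below 4, the second in the background range (values below 3). The size of this difference therefore depends on the background correction. Rogdi, a protein linked to synaptic vesicles and the acidification of organelles, overlapped in pre-mid-pachytene cells (-0.26). In spermatids it was lower without overlap, with 11.73, 11.28 and 11.47 (euploid) against 11.26, 10.93 and 11.03 (trisomic) and a difference of -0.42.

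**Figure D3:**
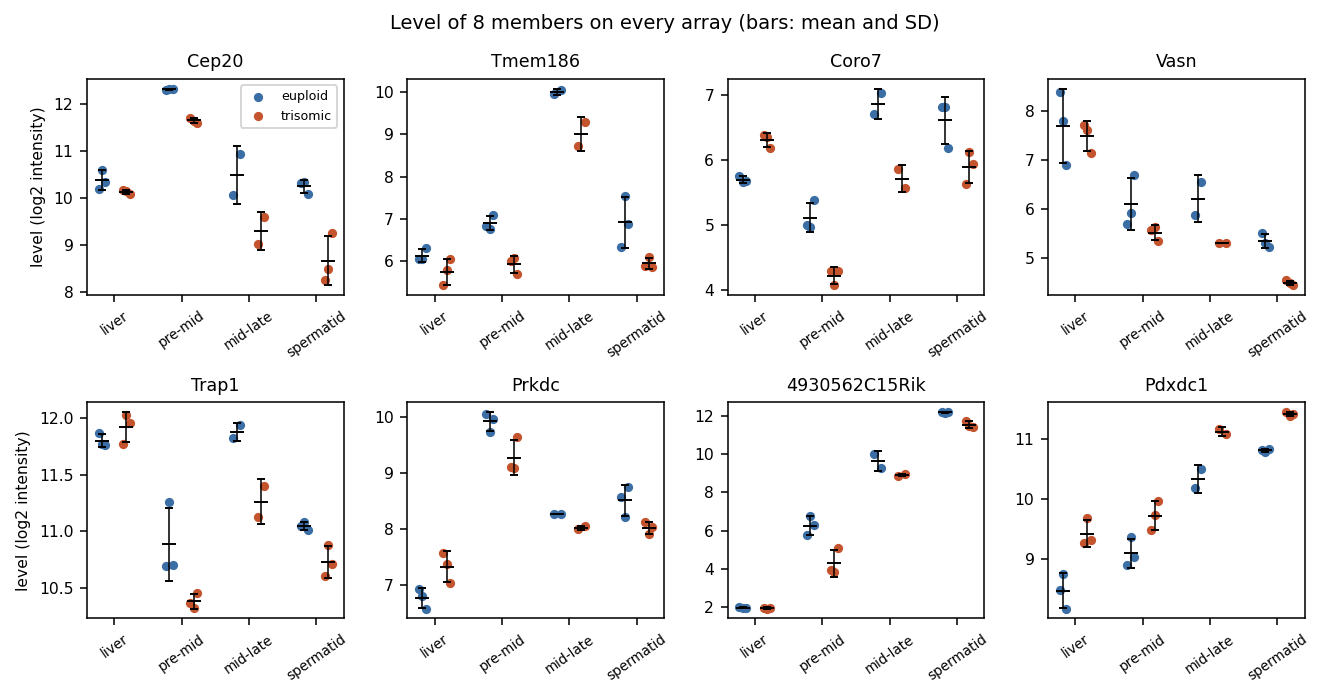
Level (log2 intensity) of 8 members on each array by cell type, euploid in blue and trisomic in orange; bars give the mean and SD of each group, and the axes differ between genes. Cep20, Tmem186, Coro7, Vasn, Trap1, Prkdc and 4930562C15Rik are lower on all trisomic arrays of the 3 germ cell types, Coro7 and Prkdc are higher on the trisomic liver arrays, and Pdxdc1 is higher on all trisomic arrays of each cell type.

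The 12 tested genes of mitochondria, enzymes and glycosylation were mixed, with 10 below 0 in pre-mid-pachytene and 8 in mid-late-pachytene cells. Tmem186, an assembly factor of respiratory complex I, had 6.83, 6.76 and 7.08 on the euploid and 5.99, 6.06 and 5.68 on the trisomic pre-mid-pachytene arrays. In mid-late-pachytene cells it had 9.96 and 10.07 (euploid) and 8.72 and 9.29 (trisomic), and in spermatids 6.32, 7.53 and 6.87 (euploid) and 5.87, 6.09 and 5.84 (trisomic). No trisomic germ cell array reached the euploid arrays of its type, and the differences were -0.98, -1.01 and -0.97. Its neighbour Pmm2, a phosphomannomutase of N-glycan synthesis that is transcribed the other way, starts 209 bases from one of the 2 annotated Tmem186 starts. Pmm2 differed by -0.20, -0.55 and -0.42, with overlap only in pre-mid-pachytene cells, and by -0.28 in spermatids without trisomic array 1.

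Alg1, the first mannosyltransferase of N-glycan assembly, had 11.80, 11.60 and 11.60 (euploid) against 10.83, 10.60 and 10.62 (trisomic) in pre-mid-pachytene cells, a difference of -0.98. In mid-late-pachytene cells it had 7.20 and 7.43 (euploid) against 7.27 and 7.18 (trisomic), which overlapped. Trap1, the mitochondrial HSP90 chaperone, had 11.05, 11.09 and 11.01 (euploid) against 10.61, 10.88 and 10.71 (trisomic) in spermatids. It was lower without overlap in each germ cell type, with differences of -0.50 (-0.31 without euploid array 2), -0.62 and -0.32. Pla2g10, a secreted phospholipase A2 of the acrosome, had 6.99, 6.80 and 7.10 (euploid) against 4.96, 5.85 and 6.10 (trisomic) in pre-mid-pachytene cells, a difference of -1.33. Hmox2, the constitutive heme oxygenase, differed by -0.25, -0.38 and -0.15, without overlap only in mid-late-pachytene cells.

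Pdxdc1 and, in the later types, Nubp1 went the other way. Pdxdc1, a pyridoxal-dependent decarboxylase domain protein, had 8.91, 9.37 and 9.03 on the euploid and 9.49, 9.73 and 9.97 on the trisomic pre-mid-pachytene arrays. In mid-late-pachytene cells it had 10.18 and 10.51 (euploid) against 11.18 and 11.08 (trisomic), and in spermatids 10.82, 10.79 and 10.84 (euploid) against 11.45, 11.39 and 11.43 (trisomic). Every trisomic array was above the euploid arrays of its type, by means of 0.63, 0.79 and 0.61. Nubp1, a factor of cytosolic iron-sulfur cluster assembly, was lower in pre-mid-pachytene cells with overlap (-0.50) and higher without overlap in the later types (0.20, or 0.10 without trisomic array 1, and 0.23). Its spermatid levels were 7.76, 7.92 and 8.04 on the euploid and 8.10, 8.20 and 8.11 on the trisomic arrays.

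The 5 genes of RNA handling and translation had medians of -0.08, -0.11 and 0.01 in the order of maturation. Over all genes tested the medians were 0.11, 0.0034 and 0.01, so only the spermatid median was near that of all genes. Zc3h7a, a zinc finger protein, had 8.30, 8.52 and 8.08 (euploid) against 7.45, 7.22 and 6.91 (trisomic) in pre-mid-pachytene cells, a difference of -1.11. In spermatids its difference was 0.80, with euploid levels of 5.95, 7.17 and 5.62 that spread widely and overlapped the trisomic 6.91, 7.07 and 7.17. Gspt1, the translation termination factor eRF3, differed by -0.08, -0.16 and 0.01, and Rsl1d1, a nucleolar protein, by 0.24, -0.11 and -0.33. The genotypes of both genes overlapped throughout.

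Of the 12 genes of signalling, ubiquitin ligases and membrane proteins, 6 of 7 tested were below 0 in pre-mid-pachytene cells and in spermatids. Clec16a, a regulator of mitophagy, had 7.06, 6.96 and 6.84 on the euploid and 6.39, 5.73 and 6.56 on the trisomic spermatid arrays, a difference of -0.72 (-0.48 without trisomic array 2). In pre-mid-pachytene cells it had 5.13, 5.10 and 5.14 (euploid) against 4.62, 4.61 and 4.64 (trisomic), tight groups that did not overlap, with a difference of -0.50. Cdip1, a p53 target of the death receptor pathway, differed by -0.36, -0.49 and -0.41, and Dexi, named for its induction by dexamethasone, by -0.37, 0.03 and -0.12. Without 1 array the pre-mid-pachytene difference of Dexi was -0.21 (euploid array 2) and the mid-late-pachytene difference of Cdip1 was -0.32 (trisomic array 2).

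All 3 little characterised genes were below 0 in pre-mid-pachytene cells and in spermatids. 4930562C15Rik had pre-mid-pachytene levels of 5.77, 6.75 and 6.27 on the euploid and 3.93, 3.85 and 5.10 on the trisomic arrays, a difference of -1.97. The trisomic levels of 3.93 and 3.85 were below 4, so the size of this difference can depend on the background correction. In mid-late-pachytene cells the difference was -0.75, or -0.38 without euploid array 1. In spermatids, where it was high, the levels were 12.17, 12.14 and 12.18 (euploid) and 11.72, 11.44 and 11.43 (trisomic), a difference of -0.63. Mettl22, a lysine methyltransferase, differed by -0.71, -0.30 and -0.17, without overlap in both pachytene types. Beside the pre-mid-pachytene differences of 4930562C15Rik, Pla2g10, Slx4 and Usp7, whose mean levels were higher in spermatids than in that type, stand the lower round spermatid markers given above, and their part in these differences was not tested.

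The members not yet described were mixed. Dnaja3, a mitochondrial HSP40 chaperone, was lower without overlap in pre-mid-pachytene (-0.82) and mid-late-pachytene cells (-0.45). Anks3, an ankyrin repeat protein of cilia, Ubald1, Parn and Ntan1, an amidase of N-terminal asparagine, were lower without overlap in pre-mid-pachytene cells only, with -0.79, -0.92, -0.41 and -0.32. Spidr was lower without overlap in mid-late-pachytene cells (-0.46, and -0.30 without trisomic array 2), and the ubiquitin ligase Mgrn1 in spermatids (-0.28). Txndc11, Carhsp1, Nde1, Abcc1, Snx29, Snn and Abat overlapped between genotypes wherever they were tested in germ cells, and Abat lay above 0 in all 3 types (0.49, 0.19 and 0.42). Adcy9, Nmral1, Ppl, Nagpa and Litaf reached a mean of 4 in liver alone.

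In liver the members lay on both sides of 0, with more above it than below. The median difference of the 45 members tested was 0.10, against -0.01 over all genes. With each array centred on its autosomal median these became -0.0143 and -0.11. There were 17 of 45 below 0 (51.9% of all genes). Members with every trisomic array above every euploid array numbered 5 of 45 (11.8% of all genes), Coro7, Rogdi, Abat, Pdxdc1 and Prkdc. Those with every trisomic array below numbered 3 of 45 (11.3%), Pmm2, Bfar and Cep20. By limma with Benjamini-Hochberg adjustment over all genes tested, 4 of 45 members rose (5.77% of all genes) and 1 of 45 fell (3.78%), shares near the background.

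Rogdi had liver levels of 7.33, 7.34 and 6.52 on the euploid and 8.69, 8.80 and 8.50 on the trisomic arrays. The groups were well apart, and it rose by 1.60 (SE 0.26, adjusted p = 0.000641) in limma's test, a 3.04-fold higher trisomic level. Pdxdc1 had 8.49, 8.76 and 8.18 (euploid) and 9.28, 9.69 and 9.32 (trisomic), and rose by 0.95 (SE 0.17, adjusted p = 0.00134), the same direction as in the germ cells. Coro7 had 5.76, 5.66 and 5.69 (euploid) and 6.40, 6.35 and 6.19 (trisomic), and rose by 0.61 (SE 0.18, adjusted p = 0.0403). Ppl, the plaque protein periplakin, had 3.79, 6.22 and 4.52 (euploid) and 5.93, 7.33 and 5.71 (trisomic), and rose by 1.48 (SE 0.43, adjusted p = 0.0386) although 1 euploid array lay above 2 of the trisomic ones. Within same-numbered liver arrays, whose pairing the labels do not state, Ppl was higher on the trisomic array in 3 of 3 pairs. Bfar encodes an anti-apoptotic ubiquitin ligase of the endoplasmic reticulum. The probe set matched to it by synonym had 7.08, 6.30 and 6.32 (euploid) and 5.58, 5.81 and 5.52 (trisomic). It fell, with a difference of -0.93 (SE 0.23, adjusted p = 0.0155). Its germ cell arrays overlapped between genotypes in all 3 types.

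These liver calls rest on the spread shared by all 22 arrays. On the liver arrays alone 0 members were called, but of all 8180 genes tested only 14 were called higher and 5 lower there. The adjusted p in that fit were 0.0686 for Rogdi, 0.114 for Pdxdc1, 0.108 for Coro7, 0.363 for Ppl and 0.153 for Bfar. With the replicate number as a block, Coro7 no longer passed (adjusted p = 0.0698) and Prkdc, which differed by 0.56, passed (0.0336 against 0.057 without it). The other 4 calls held under the block, with adjusted p of 0.00016 for Rogdi, 0.00294 for Pdxdc1, 0.000955 for Ppl and 0.0321 for Bfar. Ppl lost its call without euploid array 1 (0.95, adjusted p = 0.158), euploid array 3 (1.32, 0.142) or trisomic array 2 (0.98, 0.185), and Bfar without euploid array 1 (-0.67, 0.0644) or trisomic array 1 (-0.90, 0.0503). Coro7 lost its call without any 1 liver array other than trisomic array 3, with adjusted p of 0.0543 to 0.115.

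**Figure D4:**
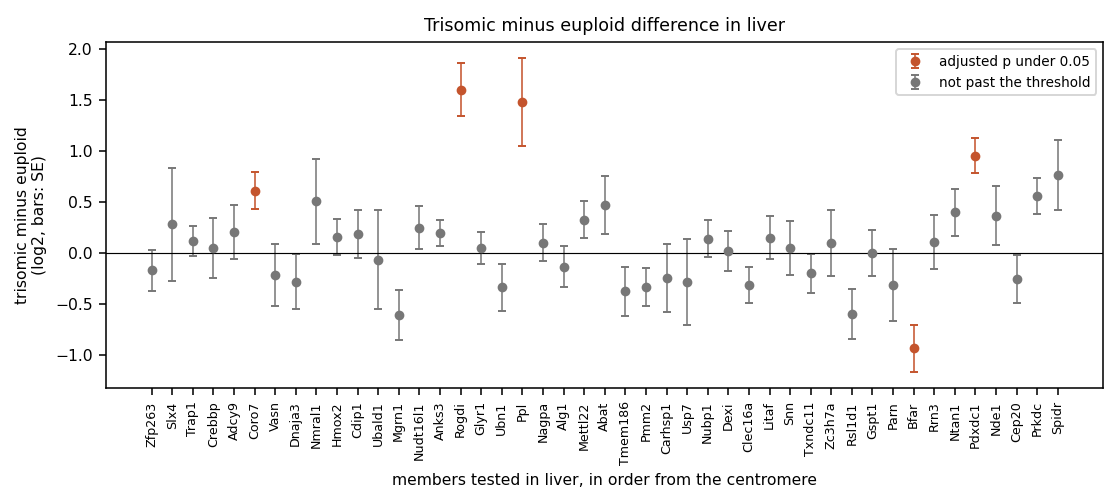
Trisomic minus euploid difference in liver (log2, bars give the standard error of the fit) of the 45 members tested, in order from the centromere; orange points have an adjusted p under 0.05 in limma. Rogdi (1.60), Ppl (1.48), Pdxdc1 (0.95) and Coro7 (0.61) stand above 0 and Bfar (-0.93) below.

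Levels of the members changed widely between cell types, in both directions and about as often as those of other genes. From pre-mid-pachytene to mid-late-pachytene cells, averaged over both genotypes, 17 of 43 members rose (44.8% of all genes tested) and 18 of 43 fell (39.9%). From mid-late-pachytene cells to spermatids 16 of 43 rose (32.7%) and 15 of 43 fell (40.4%). Against liver, the mean of the germ cell types was higher for 22 of 47 members (52.8%) and lower for 19 of 47 (40.4%). The adjusted p-values below are from limma over all genes tested. The filter took the mean over all arrays of the types compared. A gene low on either side could therefore pass through the other, which favours a call among members and all genes alike.

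Among the largest steps between the pachytene types were those of repair and glycosylation genes. Ercc4 rose from 4.76 ± 0.27 to 8.67 ± 0.06 (SD over 6 and 4 arrays of both genotypes), by 3.91 (SE 0.15, adjusted p = 1.09e-14). Slx4 rose from 6.98 ± 0.73 to 10.87 ± 0.18, by 3.89 (SE 0.43, adjusted p = 9.34e-08), and 4930562C15Rik from 5.28 ± 1.21 to 9.27 ± 0.52, by 3.99 (SE 0.22, adjusted p = 2.65e-12). All 3 genes stayed high in spermatids. Alg1 fell from 11.17 ± 0.55 to 7.27 ± 0.11, with a difference of -3.90 (SE 0.16, adjusted p = 5.56e-14), and fell again to 4.19 ± 0.43 in spermatids, with -3.08 (SE 0.16, adjusted p = 7.51e-12). The probe set matched to Bfar by synonym fell from 10.03 ± 0.24 to 5.96 ± 0.20, with a difference of -4.07 (SE 0.19, adjusted p = 1.81e-13).

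Parn, the poly(A)-specific ribonuclease, fell from 7.86 ± 0.27 to 4.42 ± 0.90 and returned to 8.39 ± 0.35 in spermatids. The steps were -3.44 (SE 0.28, adjusted p = 9.31e-10) and 3.97 (SE 0.28, adjusted p = 2.76e-10). Tmem186 had the reverse course, with 6.40 ± 0.56, 9.51 ± 0.63 and 6.42 ± 0.66, and fell into spermatids with a difference of -3.09 (SE 0.19, adjusted p = 5.52e-11). Spidr fell from 7.46 ± 0.33 to 3.17 ± 0.56, just above the background range (values below 3), with a difference of -4.28 (SE 0.27, adjusted p = 6.21e-11). It passed the filter through mid-late-pachytene cells.

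Other members rose into spermatids. Pla2g10 went from 7.28 ± 1.28 in mid-late-pachytene cells to 11.16 ± 0.36 in spermatids, a rise of 3.88 (SE 0.38, adjusted p = 2.36e-08). Snn, the small membrane protein stannin, rose from 3.47 ± 0.23 to 7.07 ± 0.46, by 3.59 (SE 0.21, adjusted p = 2.35e-11). Its mid-late-pachytene mean was below 4, so Snn passed the filter through spermatids. Cep20 and Prkdc, by contrast, were highest in pre-mid-pachytene cells, at 11.99 ± 0.36 and 9.60 ± 0.42, and fell into mid-late-pachytene cells with differences of -2.08 (SE 0.19, adjusted p = 4.15e-09) and -1.45 (SE 0.15, adjusted p = 2.18e-08).

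Against liver the largest differences were those of genes with a low level on one side. Abat, which degrades the transmitter GABA, had 13.69 ± 0.28 in liver and between 4.73 and 6.29 in the germ cell types, a difference of -8.39 (SE 0.17, adjusted p = 2.26e-19). Litaf, a protein of late endosomes, differed by -7.29 (SE 0.12, adjusted p = 1.85e-20) and Adcy9, an adenylyl cyclase, by -6.34 (SE 0.15, adjusted p = 5.02e-18). In the other direction 4930562C15Rik, at 1.97 ± 0.02 in liver, differed by 6.83 (SE 0.16, adjusted p = 3.84e-18), Pla2g10 by 5.65 (SE 0.28, adjusted p = 4.57e-13) and Slx4 by 4.93 (SE 0.33, adjusted p = 3.8e-11). Values near the background range make these sizes depend on the background correction. Litaf and Adcy9 reached a mean of 4 in liver alone, and 4930562C15Rik and Pla2g10 only in germ cells. These genes passed the filter through the side on which they were high, so their calls were largely set by it.

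**Figure D5:**
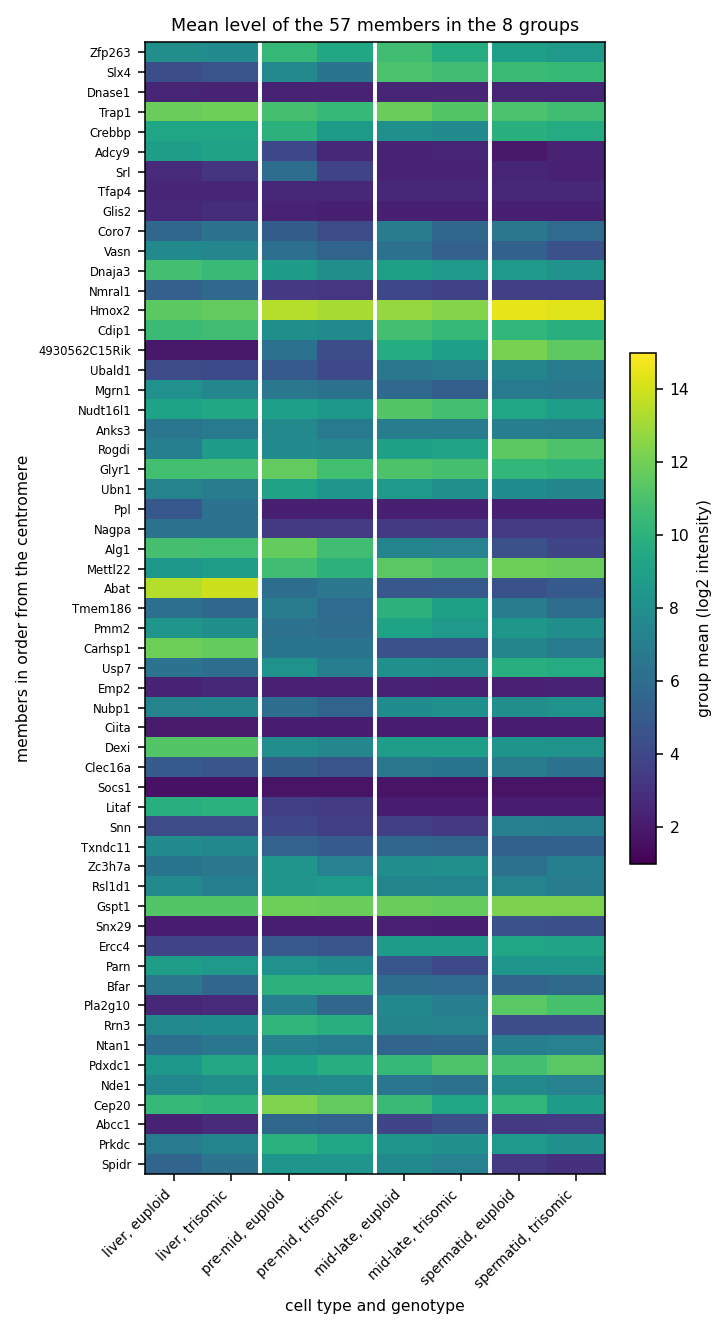
Mean level (log2 intensity, colour) of each of the 57 members in the 8 groups of cell type and genotype, with members in order from the centromere; colours are to be compared along a row, since each gene has its own probes. Abat, Litaf and Adcy9 are brightest in liver, while 4930562C15Rik and Pla2g10 brighten from pre-mid-pachytene cells to spermatids.

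Described by their course between cell types, the members had the following genotype differences. In pre-mid-pachytene cells the median difference was -0.50 for the 17 members that rose into mid-late-pachytene cells (16 below 0), -0.32 for the 18 that fell (14 below 0) and -0.85 for the 8 not called (8 below 0). Over all genes tested the same classes had 0.13, 0.10 and 0.09. In spermatids it was -0.19 for the 16 members that rose from mid-late-pachytene cells, -0.40 for 14 that fell and -0.24 for 12 not called, with 12, 13 and 9 below 0.

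Genes elsewhere in the genome that act with members were mostly not called in trisomic arrays, which does not show that they were unchanged. In simulated data the fit called 63% of differences of 1 (log2) in pre-mid-pachytene cells, 49% in mid-late-pachytene cells and 63% in spermatids. The 4 lists held enzymes that cut or dissolve DNA junctions (partners of Slx4 and Ercc4), end joining factors (Prkdc), N-glycan assembly enzymes (Alg1 and Pmm2) and genes of translation termination and poly(A) shortening (Gspt1 and Parn). In pre-mid-pachytene cells 0 of 30 tested were called by limma (5.88% of all genes rose and 4.46% fell), with 2 higher and 0 lower at an unadjusted p under 0.05. The end joining list had a median difference of 0.36 there. The junction, N-glycan and translation lists had 0.19, 0.14 and 0.10, against 0.11 over all genes. In spermatids 0 of 30 were called (0.29% and 0.531% of all genes), with 0 higher and 1 lower unadjusted. In mid-late-pachytene cells 1 of 29 was called (0.569% and 0.396%; 3 higher and 1 lower unadjusted), Pmm1, the paralog of Pmm2. Pmm1 had means of 4.18 on the euploid and 5.42 on the trisomic arrays, a rise of 1.25 (SE 0.24, adjusted p = 0.0126). It lost the call without trisomic array 1 (0.84, adjusted p = 0.193), without euploid array 2 (1.05, 0.0642) and on the mid-late-pachytene arrays alone (0.782). In liver 1 of 27 was called (5.77% of all genes rose and 3.78% fell; 2 higher and 3 lower unadjusted), Cnot7, a deadenylase, which fell with a difference of -0.95 (SE 0.28, adjusted p = 0.0386), and lost the call when any 1 liver array but euploid array 3 was left out (adjusted p of 0.082 to 0.116).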

How the data were processed

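The authors deposited log2 intensities from 22 Affymetrix arrays, made with GCRMA per the submitters' processing notes; its version is not given in the sources used here. GCRMA corrects background by probe GC content, normalizes and summarizes probes, which sets unexpressed genes to a narrow low range. RNA was labelled in 2 cycles from 20 to 30 ng, per the labels' protocols. Of 16539 probe sets, 15780 carried 1 gene symbol, 759 carried none, and 15753 genes were placed on GRCm38.p6. Values ran from 0.90 to 16.75 and array medians from 4.10 to 4.69.

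The 8 group means were fitted on all 22 arrays with limma 3.58.1 in R 4.3.3 (two-sided, Benjamini-Hochberg over genes whose mean reached 4 on the arrays compared, threshold 0.05). The script was tested on simulated data. The members and gene lists were chosen with earlier results of these data known. Named genes were chosen by rule. In the germ cell types they were the largest falls (8, 5 and 5) and up to 2 rises without overlap. The rule also took liver calls, the 3 largest changes each way between cell types and the 2 most abundant members of each role. It further took called partner genes (up to 2 a list) and the genes at the bound. Ubn1, Pmm2, Rrn3, the unlisted genes near the bound and the members that complete the account were added after their values were seen. Other values of the named genes were added in the same way.

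Same-numbered liver arrays deviated together across genes (correlations 0.11, 0.31 and 0.15), and unlike-numbered liver arrays had -0.25 to 0.08. The replicate number was therefore used as a block in an alternative fit, but the labels do not state a pairing. The main liver tests, their SE and their adjusted p took no pairing. Unlike-numbered spermatid arrays reached 0.28, so correlations of this size do not establish pairs. Alternatives were other filters, quantile normalization, centring on the autosomal median, a trended robust spread, arrays of the compared types only, the block and leaving out each array.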

Additional observations from a re-analysis of the deposited data

Results flagged for a closer look

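For 3 members every trisomic liver array lay above the euploid ones while every trisomic array of a germ cell type lay below, and the differences between cell types were not tested. Taken singly, 5 of 45 members were higher without overlap in liver (11.8% of all genes). In at least 1 germ cell type 33 of 46 were lower without overlap (22.9% of all genes). The share of all genes with both was not computed, so nothing is read from the count of 3. For Coro7 the liver difference exceeded that in pre-mid-pachytene cells by 1.51 (log2), in mid-late-pachytene cells by 1.77 and in spermatids by 1.33. For Prkdc the gaps were 1.21, 0.81 and 1.06 in the same order. For Rogdi the liver difference exceeded that in spermatids by 2.02. The germ cell side of each gap belongs to the differences that chose the region.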

How the results depend on the processing

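The median of the members in liver was 0.10, and -0.0143 with arrays centred on the autosomal median, which moved the median of all genes there from -0.01 to -0.11. The pre-mid-pachytene median of -0.50 became -0.37 with no filter, -0.41 with a minimum mean of 6, -0.42 with centring and -0.40 over all genes of the first 17 Mb. The mid-late-pachytene median of -0.25 became -0.11 with no filter, and the spermatid median of -0.28 became -0.15 with no filter, -0.32 with a minimum mean of 6 and -0.17 over all genes of the first 17 Mb. Members higher in liver numbered 4, but 2 with no filter and 0 on liver arrays alone, and the 1 lower became 0 on liver arrays alone. Of all 8180 genes tested, 14 were called higher and 5 lower on liver arrays alone. Partner genes higher in liver numbered 1 with the replicate block; the 1 lower became 0 with no filter and 0 on liver arrays alone. In pre-mid-pachytene cells 1 partner gene was higher with centring. In mid-late-pachytene cells the 1 higher became 0 with a minimum mean of 6 and 0 on that type's arrays alone, where 0 of all 8085 genes were called. The causes were not tested. Some of these settings test fewer or more genes or fit fewer arrays, the block adds terms to the fit, and centring shifts the values themselves.

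Leaving out 1 array at a time gave 2 to 5 members higher and 0 to 1 lower in liver. It gave 0 to 1 partner genes higher and 0 to 1 lower in liver, 0 to 2 higher in pre-mid-pachytene and 0 to 2 higher in mid-late-pachytene cells, with 0 lower in any germ cell type. The medians ran from 0.03 to 0.10 in liver, -0.51 to -0.43, -0.31 to -0.24 and -0.31 to -0.24 in the germ cell types. Between pachytene types 16 to 20 members rose and 17 to 19 fell, between mid-late-pachytene cells and spermatids 14 to 16 rose and 14 to 15 fell, and against liver 21 to 23 were higher and 17 to 20 lower.

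With the replicate number as a block, 4 members were higher and 1 lower in liver, 18 rose and 17 fell between pachytene types, 16 and 15 into spermatids, and 21 and 19 differed from liver. Outside liver same-numbered arrays did not all deviate together (correlations from -0.13 to 0.39 within germ cell types), so there the samples share only a number. Centring moved the median of all genes from 0.11 to 0.20 in pre-mid-pachytene cells (trisomic minus euploid), from 0.12 to 0.41 between pachytene types, from -0.13 to -0.30 into spermatids and from 0.51 to 0.35 against liver. Quantile normalization gave -0.0069, -0.27 and 0.34 for the last 3. Of all genes, 472 were higher and 309 lower in trisomic liver, but 365 and 469 with centring, and 493 and 374 in pre-mid-pachytene cells became 839 and 337.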
